A study of Mus musculus with 8 samples.

Results

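The 8 genes described here belong to the renin-angiotensin system: Agt, Ace, Enpep, Lnpep, Agtr1a, Agtr1b, Agtr2 and Atp6ap2. They were chosen by function, and Agtr1a was singled out from the measured values of these same arrays, so the genotype differences of all 8 are given as a description. They were part of the fit across all probes, but no p of theirs is given and no call on them counts as evidence. The array carried 10 probes for them, of 32994 probes that could be given a gene name, and 7 of the 10, for 7 of the 8 genes, passed the filter on dim probes. To pass it, a probe had to be well above background throughout the measured arrays of 1 genotype or both, as 37085 of 56605 were, and neither Agtr1b probe nor the second Enpep probe passed it.

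The renin-angiotensin system is a cascade of peptides that controls blood pressure, salt balance and vessel tone. The enzyme renin cuts angiotensinogen, angiotensin-converting enzyme trims the product to angiotensin II, and aminopeptidases shorten angiotensin II further. Angiotensin II acts on the type 1 receptor, which constricts vessels and promotes growth and inflammation, and on the type 2 receptor, which is generally held to oppose these actions. Components of the system have been described within the retina itself, in glia, vessels and neurons.

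The study asked how loss of the efflux transporter Mrp4 (gene Abcc4) changes gene expression in the aged retina. Whole retinas of mice homozygous for an Mrp4 knockout, on a C57BL/6J background according to the methods, were compared with whole retinas of wild-type mice. The labels give both groups an age of 46 to 55 weeks, and the methods a slightly younger lower bound. Each genotype had 4 samples, each on 1 one-color array, and all 8 arrays lay on 1 slide. The methods name tissue from 3 mice without making clear whether each sample pooled them, so p-values measure only the spread between these samples, which may be partly technical. The knockout was present in every cell of the animal, and whole retina was measured, so a change in the number of cells of a type and a change in RNA per cell cannot be told apart.

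The targeted gene went against the labels. Abcc4 (chromosome 14) had a processed signal of 2190, 1250, 1730 and 2030 where the label was Mrp4-null and of 107, 160, 76.8 and 108 on the wild-type arrays. After normalization this was a log2 difference of 3.92 (SE 0.14), with the higher signal under the label Mrp4-null (adjusted p = 1.36e-05, limma). Which part of the gene was deleted is not given in the sources used here, so a probe outside the deleted part and an exchange of the labels cannot be told apart. An exchange would turn the direction of every difference given here. The arrays labelled Mrp4-null are called null-labelled below. Each genotype filled a row of the slide of its own, so slide row and genotype cannot be told apart. The 75th percentile of the signal ran from 497 to 786, lowest on the null-labelled arrays 2 and wild-type 3. All 8 rod marker genes, which mark the photoreceptors of the retina, were measured, and their mean log2 signal was 16.2 to 16.27 on the null-labelled arrays and 16.16 to 16.32 on the wild-type arrays. Xist, expressed from the inactive X chromosome of females, was well above background on all 4 null-labelled arrays and on wild-type 1 and 2, and Y-linked genes on wild-type 2, 3 and 4 only, so the sexes were not balanced between the genotypes and wild-type 2 carried signal of both sexes. A list of 13 lens genes had a mean log2 signal of 6.28 to 8.77 on the null-labelled arrays and of 7.64 to 10.15 on the wild-type arrays, with 0 genes called by limma (4 at an unadjusted p under 0.05). All 13 lens genes had a lower mean under the label Mrp4-null, with a median log2 difference of −1.44, and the part of lens tissue in the values below was not tested.

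Agtr1a was the gene of the 8 that differed most between the genotypes. Agtr1a (chromosome 13) encodes the main type 1 angiotensin receptor of the mouse, a G protein-coupled receptor and the target of the sartan drugs. Its single probe gave a processed signal of 320, 162, 174 and 214 on the null-labelled arrays and of 51, 46.7, 12.7 and 27.5 on the wild-type arrays. Normalized log2 signals were 8.10, 7.65, 7.22 and 7.62 against 5.55, 5.41, 3.97 and 5.09. The groups did not overlap: the lowest null-labelled array stood 1.68 log2 units, or 3.19-fold, above the highest wild-type array. The means were 7.65 ± 0.36 and 5.00 ± 0.72 (SD, n = 4 each), a log2 difference of 2.65 (SE 0.34) and a fold of 6.26 toward the null-labelled arrays. With normexp background correction, which adds an offset of 50 to the signals, the log2 difference was 1.39.

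The wild-type level of Agtr1a lay near the floor of the measurement. The probe was well above background on all 4 null-labelled arrays and on 3 of 4 wild-type arrays, wild-type 3 being the exception. Over the 3 wild-type arrays that measured it the mean was 5.35, which left a log2 difference of 2.30 and a fold of 4.93. Wild-type 3 was also 1 of the 2 dim arrays, and it held the lowest Agtr1a value of the 8. On the scale of the processed signal, before any normalization, the genotype means differed 6.31-fold.

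**Figure D1:**
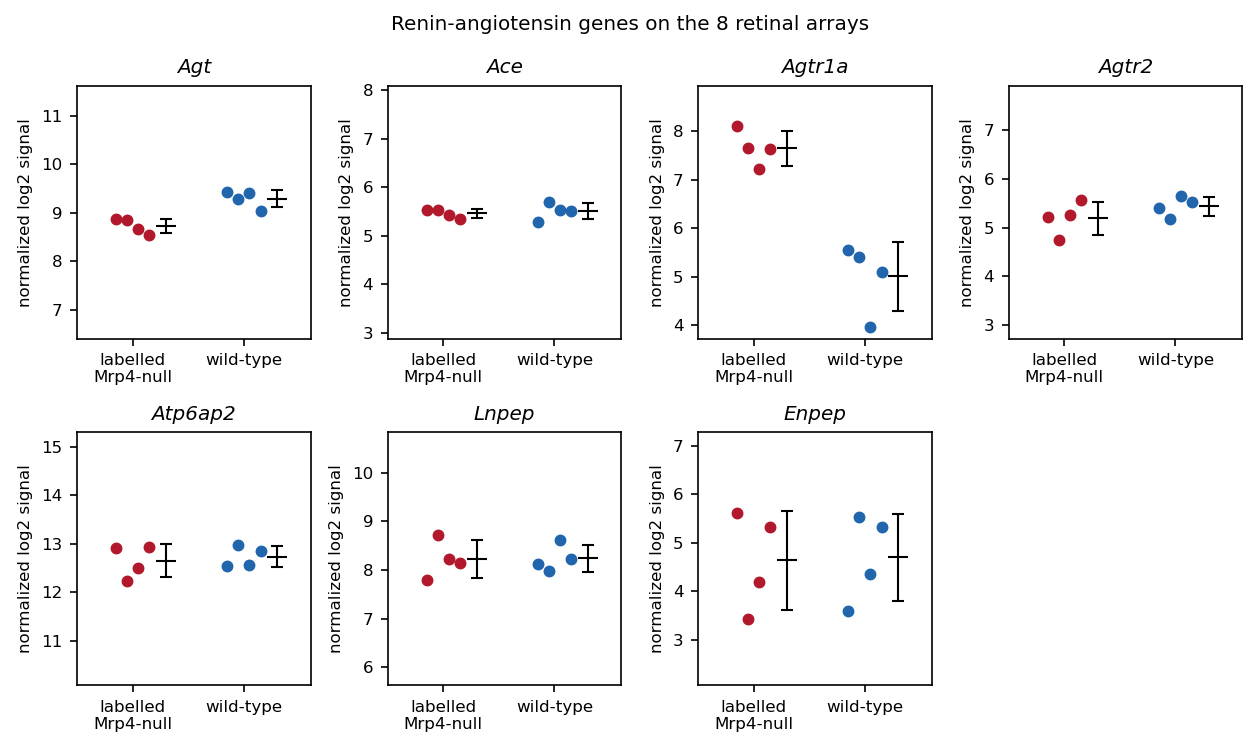
Normalized log2 signal (y axis) of the 7 retained probes, 1 panel per gene, on the 4 null-labelled arrays (red) and the 4 wild-type arrays (blue). Points are single arrays and the bars show mean ± SD. The Agtr1a points are 7.22 to 8.10 against 3.97 to 5.55, the Agt points 8.55 to 8.86 against 9.04 to 9.43, and the points of the other 5 genes overlap.

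Among all 37085 retained probes, limma called 202 (0.545%) at a fold of at least 1.5 with a Benjamini-Hochberg adjusted p under 0.05, 95 higher and 107 lower on the null-labelled arrays. Of the 7 retained probes of the 8 genes, 1 met this rule, that of Agtr1a, and nothing is read from the count, since these arrays served in choosing it. It did not meet the rule with no filter on dim probes or without wild-type 4, and it was not tested where all 8 arrays had to be well above background. No overlap between the genotypes was seen for 1778 retained probes (4.79%), among them 2 of the 7, those of Agtr1a and Agt.

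Only 1 wild-type array had the same sex-linked signals as the null-labelled arrays. Wild-type 1 had Xist and no Y-linked signal, as did the 4 null-labelled arrays. Agtr1a was at 5.55 there, 2.10 below the mean of the null-labelled arrays. With 1 such array no spread can be given. Wild-type 2, with Xist and Y-linked signal, was at 5.41. Wild-type 3 and 4, with Y-linked signal and no Xist, were at 3.97 and 5.09, the first of these not well above background. The part of sex in the Agtr1a values was not tested.

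The other type 1 receptor gene was not detected. Agtr1b (chromosome 3) is a rodent paralog of Agtr1a, and mice carry both where humans have a single type 1 receptor gene. Its probes had processed signals of 2.37 to 2.79 and of 2.68 to 3.01, and neither was well above background on any of the 8 arrays. No fold is given, and the level lay under what these arrays can measure. Probe sequences were not used here, so whether the Agtr1a probe also binds Agtr1b transcripts was not tested.

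Agtr2 (chromosome X), the type 2 receptor gene, was well above background on all 8 arrays. Its normalized log2 signals were 5.22, 4.74, 5.25 and 5.56 on the null-labelled arrays and 5.40, 5.18, 5.64 and 5.53 on the wild-type arrays. Both groups overlapped, with the lowest value on the dim array Mrp4-null 2. The means of 5.19 ± 0.34 and 5.44 ± 0.20 (SD, n = 4 each) differed by −0.25 (SE 0.17), less than the range within either genotype.

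Agt encodes angiotensinogen, the only precursor of the angiotensin peptides, which in the nervous system comes largely from astroglia. Agt (chromosome 8) had a processed signal of 545, 357, 463 and 413 on the null-labelled arrays and of 738, 745, 533 and 456 on the wild-type arrays, and these signals overlapped. After normalization the log2 values were 8.86, 8.84, 8.67 and 8.55 against 9.43, 9.28, 9.40 and 9.04. All 4 wild-type arrays then lay above all 4 null-labelled arrays, by a gap of 0.18. The means were 8.73 ± 0.15 and 9.29 ± 0.18 (SD, n = 4 each), a log2 difference of −0.56 (SE 0.12), which is 1.47-fold and below the fold of the call rule. Against wild-type 1 alone, the array with Xist and no Y-linked signal, the mean of the null-labelled arrays was lower by 0.70 (log2 difference −0.70).

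No marker of the glia known to make angiotensinogen was called. The mean over 10 Muller glia genes was 13.32 to 13.51 on the null-labelled arrays and 13.41 to 13.52 on the wild-type arrays, with 0 genes called (limma). Over 3 astrocyte genes it was 7.65 to 8.00 against 7.52 to 7.85, also with 0 called. In each list 1 gene had an unadjusted p under 0.05, the water channel gene Aqp4 at −0.36 and −0.39 on its 2 probes (adjusted p = 0.202 and 0.362) and S100b at −0.46 (adjusted p = 0.139). On each of these probes all null-labelled arrays lay below all wild-type arrays, as for Agt. No overlap in either direction was seen for 4.79% of all retained probes. Gfap, which rises in reactive glia, stood at 0.53 and 0.46 (adjusted p = 1 for both). The part of these cells in the Agt values was not tested.

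Ace (chromosome 11) encodes angiotensin-converting enzyme, which makes angiotensin II and degrades bradykinin and is borne mainly by vascular endothelium. Its normalized log2 signals were 5.53, 5.54, 5.42 and 5.35 on the null-labelled arrays and 5.29, 5.70, 5.53 and 5.52 on the wild-type arrays. Overlap was complete, and both the lowest and the highest value were wild-type. The means of 5.46 ± 0.09 and 5.51 ± 0.17 (SD, n = 4 each) differed by −0.05 (SE 0.10). A list of 10 endothelial genes lay at 7.97 to 8.47 against 8.28 to 8.49, with 0 genes called by limma (3 at an unadjusted p under 0.05).

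Enpep and Lnpep encode membrane aminopeptidases of the M1 family. Enpep (chromosome 3), glutamyl aminopeptidase, turns angiotensin II into angiotensin III and marks pericytes in the brain. Its retained probe had log2 values of 5.61, 3.42, 4.20 and 5.33 on the null-labelled arrays and of 3.60, 5.52, 4.36 and 5.32 on the wild-type arrays. This was the widest spread within a genotype among the 7 probes, with SDs of 1.02 and 0.89, and the difference of −0.06 (SE 0.57) was small against it. Signals of 8.95 to 54.8 placed the probe near background, and 1 array, Mrp4-null 2, was not well above it. The second Enpep probe, at signals of 2.66 to 7.95, stayed near background on all 8 arrays. A list of 9 pericyte and smooth muscle genes lay at 7.78 to 7.99 against 7.81 to 7.92, with 0 genes called (0 at an unadjusted p under 0.05), and Des, a further gene of that list, stayed near background on all 8 arrays.

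Lnpep (chromosome 17) encodes the insulin-regulated aminopeptidase, which binds angiotensin IV and is also known as oxytocinase. Its log2 values were 7.80, 8.73, 8.23 and 8.14 on the null-labelled arrays and 8.13, 7.97, 8.62 and 8.23 on the wild-type arrays. These groups overlapped, and the means of 8.23 ± 0.38 and 8.24 ± 0.28 (SD, n = 4 each) differed by −0.01 (SE 0.21). In each genotype the highest value stood on the dim array, Mrp4-null 2 and wild-type 3. Before normalization the signals were 260 to 342 and 254 to 315 in the genotypes, with 335 and 315 on those arrays.

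Atp6ap2 (chromosome X) encodes the (pro)renin receptor, which is also an accessory subunit of the vacuolar proton pump. Its log2 values were 12.91, 12.24, 12.51 and 12.94 on the null-labelled arrays and 12.55, 12.98, 12.56 and 12.85 on the wild-type arrays. Here too the groups overlapped throughout, with means of 12.65 ± 0.34 and 12.73 ± 0.21 (SD, n = 4 each) and a difference of −0.09 (SE 0.18). Mrp4-null 1 and 4 and wild-type 2 and 4 held the 4 highest values of Atp6ap2, and the same arrays held the 4 highest of Enpep.

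Outside Agtr1a, all 6 retained probes had a lower mean normalized log2 signal on the null-labelled arrays, as most retained probes did (17339 of 37085 were higher). The sign turned under some alternatives for Ace, Atp6ap2, Lnpep and Enpep, whose mean processed signals were higher on the null-labelled arrays (46.5 against 44.2, 6920 against 6910, 312 against 291, and 32.1 against 28.6). The median log2 difference of the 6 was −0.0737, against −0.00927 over all 37085 retained probes, and their median absolute difference was 0.0737 against 0.0826. Of the 6, Agt alone differed by more than the range within either genotype.

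Genes of the same system outside the 8 were tested with limma over all retained probes. Of 20 such genes, 13 had a retained probe (18 probes), and 0 were called, with 1 gene at an unadjusted p under 0.05 and 1 called by the local pooled error test. Both were Cltrn (chromosome X), collectrin, a membrane protein that helps amino acid transporters reach the cell surface. Over all 37085 retained probes the local pooled error test called 232. Cltrn was at 9.11, 8.93, 8.20 and 9.06 on the null-labelled arrays and at 8.00, 8.18, 7.83 and 7.86 on the wild-type arrays. The lowest of the first group and the highest of the second were 8.20 and 8.18, and the log2 difference was 0.85 (SE 0.20, adjusted p = 0.187, limma). Without Mrp4-null 3 it was 1.07 (adjusted p = 0.00925), and by the local pooled error test on all arrays the adjusted p was 0.000665. Among the wild-type arrays only 1 and 2 had Xist, as all 4 null-labelled arrays did. The part of sex in the Cltrn values was not tested. Rnpep, aminopeptidase B, was the other gene whose arrays did not overlap on a probe, with a log2 difference of 0.15 (SE 0.07, adjusted p = 0.82) there and 0.11 (SE 0.08) on its other probe.

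The renin probes were dim. Ren1 was at 4.80, 4.86, 5.56 and 4.42 on the null-labelled arrays and at 4.61, 4.81, 3.65 and 4.50 on the wild-type arrays, with wild-type 3 not well above background. The difference of 0.52 (SE 0.30, adjusted p = 0.945) was smaller than the range within either genotype. The probe of Ren2, a second renin gene of some mouse strains, differed by 0.16 (SE 0.13, adjusted p = 1). C57BL/6J mice carry Ren1 alone, so on that background its signal cannot be read as Ren2 expression.

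None of the enzymes that process angiotensins by other routes was called. Prcp, which cleaves angiotensin II at its carboxyl end, had the lowest difference, −0.32 (SE 0.15, adjusted p = 0.806). Thop1 was at −0.13 and Prep at −0.06, both makers of angiotensin 1-7, and Nln at −0.01, 0.12 and 0.05 on its 3 probes. Anpep, which makes angiotensin IV, was at 0.19 (SE 0.49), and without Mrp4-null 3, where it was highest at 6.32, at −0.31 (SE 0.30). Ctsa was at 0.04, Ctsd at 0.05 and Dpp3 at 0.12, and the receptor-binding protein gene Agtrap at −0.04, −0.10 and 0.04 on its 3 probes.

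Other genes of the system did not pass the filter. Mas1, the receptor gene of angiotensin 1-7, was well above background on 1 array, and Mrgprd on 0. Mme, neprilysin, reached 6 arrays on the better of its 2 probes. Cma1 and Ctsg, proteases of mast cells and neutrophils that can form angiotensin II, and the mast cell gene Cpa3 were well above background on 0 arrays.

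**Figure D2:**
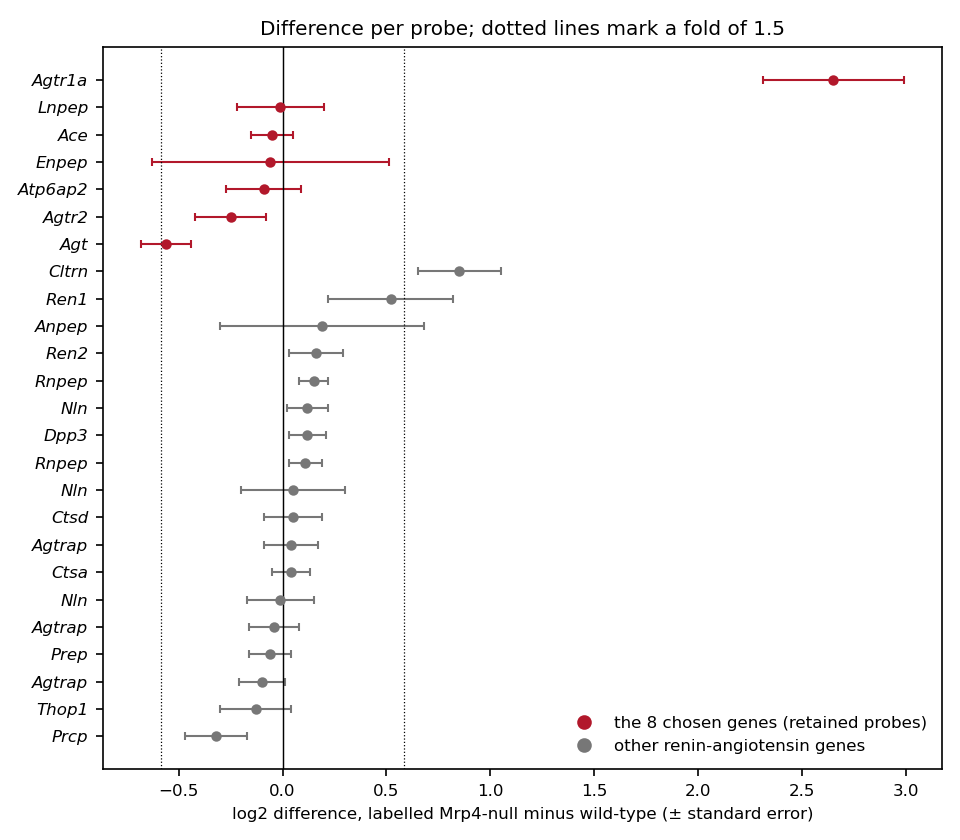
Log2 difference of each retained probe (x axis, labelled Mrp4-null minus wild-type, ± SE, n = 4 each) for the chosen renin-angiotensin genes (red) and other genes of the system (grey), with dotted lines at a fold of 1.5. Agtr1a stands at 2.65, Agt is at −0.56 inside the dotted line, Cltrn is at 0.85, and every other probe lies inside the lines.

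Steps that follow the type 1 receptor showed no called gene. Of 27 genes of receptor coupling, second messengers, arrestins and oxidase subunits, 22 had a retained probe (39 probes), with a median log2 difference of 0.00119. Limma called 0, with 1 gene at an unadjusted p under 0.05. That gene was Ncf1, an organizing subunit of the phagocyte NADPH oxidase, at 0.55 (SE 0.18, adjusted p = 0.508) and 0.64 (SE 0.26, adjusted p = 0.711) on its 2 retained probes, of 3 on the array. At the other end was Plcb1, a phospholipase C that acts downstream of Gq, at −0.45 (SE 0.34), −0.21 (SE 0.12) and −0.20 (SE 0.12) on its 3 probes, with adjusted p = 1, 0.919 and 0.96.

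Further lists touch the 8 genes. In the kallikrein-kinin system, whose peptide bradykinin is degraded by Ace, 4 of 9 genes were retained and 0 were called, with 2 at an unadjusted p under 0.05. These were Cpm, a kinin-cleaving carboxypeptidase, at 0.38 (SE 0.10, adjusted p = 0.289) and 0.57 (SE 0.20, adjusted p = 0.596), and Klkb1, plasma prekallikrein, at 0.40 (SE 0.17, adjusted p = 0.722). The kinin receptor genes Bdkrb1 and Bdkrb2 were at 0.11 and −0.01.

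In the mineralocorticoid list, the hormonal arm that angiotensin II drives in the adrenal gland, 4 of 9 genes were retained and 0 were called. Fkbp5 was at 0.25 (adjusted p = 0.748) and 0.10 (adjusted p = 1) on its 2 probes, the 1 gene with an unadjusted p under 0.05, on the first of them, and Sgk1 at −0.10. Nr3c2 was at −0.09 and −0.08 and Scnn1a at 0.10 and 0.09 on 2 probes each. Of 23 genes of the vacuolar proton pump, which Atp6ap2 helps to assemble, 19 were retained (26 probes) with differences from −0.13 (Atp6v0e2) to 0.22 (Atp6v0a4). Atp6v1a stood at −0.11 and Atp6v0a1 at 0.11 and 0.01 on its 2 probes. None of the 19 was called, and 0 had an unadjusted p under 0.05.

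The 11 M1 aminopeptidases include Enpep and Lnpep. Of the other 9, 8 were retained, from Erap1 at −0.24 and Trhde at −0.20 to Anpep at 0.19 (−0.31 without Mrp4-null 3), with 0 called and 0 at an unadjusted p under 0.05. Across the lists together, 68 of 95 genes outside the 8 had a retained probe, and limma called 0 of their 106 probes (7 probes of 5 genes at an unadjusted p under 0.05). The local pooled error test called 1 of the 106, against 232 of all 37085 retained probes.

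The neighbours of Agtr1a and Agt in gene order were read in the same fit. The 5 tested genes on each side of Agtr1a were Prl4a1, Sox4, Cdkal1, E2f3 and Mboat1 on the one side and Uqcrfs1, Dusp22, Irf4, Exoc2 and Hus1b on the other. Their 13 probes ran from −0.33 (E2f3) to 0.59 (Prl4a1, adjusted p = 0.469), and limma called 0, with 2 probes at an unadjusted p under 0.05. On chromosome 13 as a whole, 2 of 619 tested genes were called (0.323%), against 105 of 16093 on the array (0.652%). The other was 6430562O15Rik at 0.65, with 389 tested genes between it and Agtr1a.

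Agt lies on a chromosome with many called genes, 35 of 837 tested (4.18%), but its neighbours were not among them. These were Taf5l, Urb2, Galnt2, Pgbd5 and Cog2 on the one side and Capn9, 2310022B05Rik, Arv1, Fam89a and Trim67 on the other. Their 18 probes ran from −0.40 to 0.15, both ends being probes of Capn9, with 0 called by limma and 1 at an unadjusted p under 0.05. The nearest called gene was Kifc3, with 259 tested genes between it and Agt. The array design and the gene table are of different genome builds, so chromosomes and gene order are given without coordinates.

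**Figure D3:**
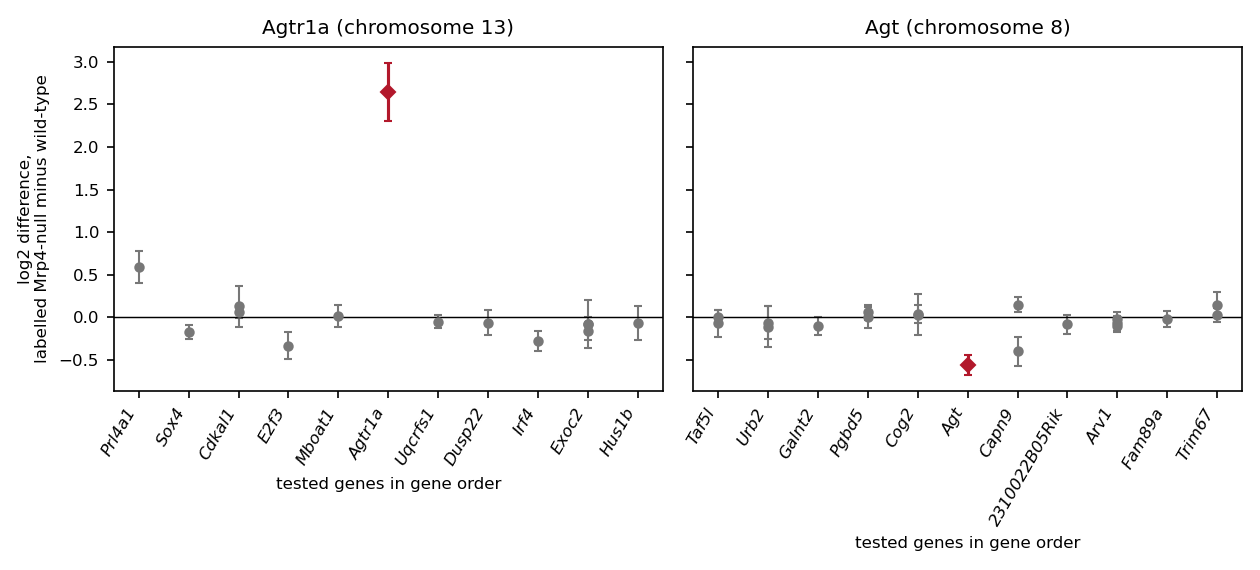
Log2 difference (y axis, labelled Mrp4-null minus wild-type, ± SE, n = 4 each) of Agtr1a and Agt (red diamonds) and of the probes of the 5 tested genes on each side (grey), in gene order along the x axis. Agtr1a stands at 2.65 among neighbours at −0.33 to 0.59, and Agt at −0.56 among neighbours at −0.40 to 0.15.

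The genes whose pattern over the 8 arrays was most like Agtr1a all lay on chromosome 4. Likeness was measured by the root mean square difference of centred log2 values over the 8 arrays. The 5 nearest named probes were those of Masp2 (0.341 and 0.445), a serine protease of the lectin complement pathway, E2f2 (0.465 and 0.525), a cell cycle transcription factor, and Cd52 (0.601), a leukocyte surface antigen. Their genotype differences were 2.67 and 2.08, 2.68 and 1.96, and 2.98. All were called by limma, which is no separate result, since choosing by likeness to Agtr1a selects such differences. Agtr1a shares with them the high level on all 4 null-labelled arrays, which dominates this measure.

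Markers of cell types that could carry the receptor or enter with the tissue were read on the same arrays. The mean of 8 ciliary body and iris genes was 8.04 to 8.18 on the null-labelled arrays and 7.81 to 7.97 on the wild-type arrays, without overlap and in the direction of Agtr1a. Cldn2, well above background on 4 null-labelled and 2 wild-type arrays, carried much of this, and over the other 7 genes (an alternative chosen after seeing the data) the ranges of 8.48 to 8.66 and 8.42 to 8.53 overlapped, with a difference of 0.06. None of the 8 was called by limma, with Wfdc1 at 0.56 and 0.38 on its 2 probes (adjusted p = 0.0976 and 0.616) and Cldn2 at 0.84 (adjusted p = 0.139) the highest. The other 6 ran from −0.17 (Opcml) to 0.19 (Foxc1), and the median log2 difference over the 8 genes was 0.0551. The part of this tissue in the Agtr1a values was not tested.

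Other lists overlapped between the genotypes. Myeloid genes (9) lay at 7.74 to 8.74 against 7.84 to 7.99, with Mrp4-null 3 apart at 8.74 and the other 3 null-labelled arrays at 7.74 to 7.90. Anpep and Ren1 were also highest on Mrp4-null 3, Cltrn was lowest there among the null-labelled arrays, and the part of myeloid cells in these values was not tested. Pigment epithelium genes (10) lay at 7.48 to 7.97 against 7.38 to 7.96, and blood genes (4) at 10.95 to 11.89 against 10.92 to 11.86, each with 0 called and 0 at an unadjusted p under 0.05, as for the myeloid genes. The part of these cells in the Agtr1a values was not tested.

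**Figure D4:**
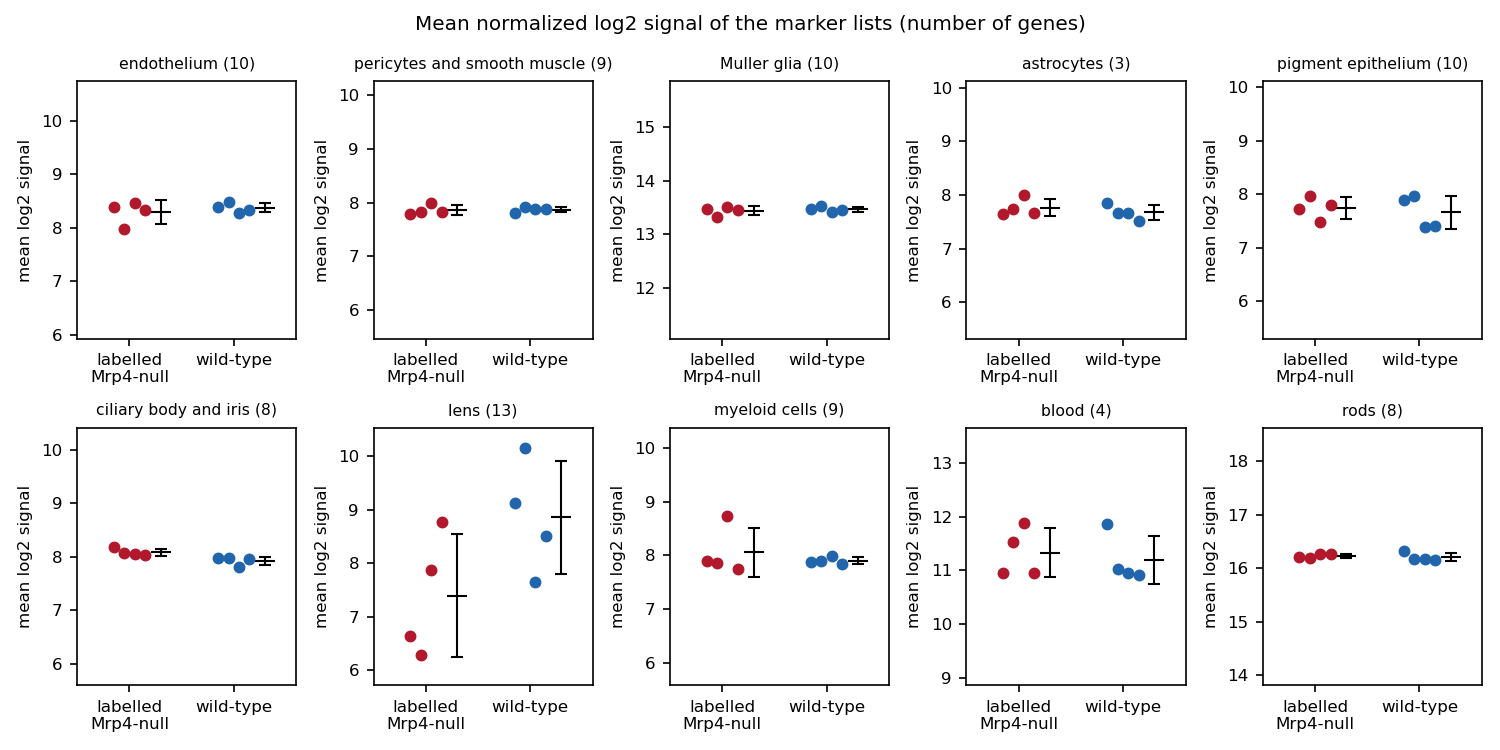
Mean normalized log2 signal (y axis) of 10 marker lists, with the number of genes in brackets, on the null-labelled arrays (red) and wild-type (blue), with mean ± SD (n = 4 each). The ciliary body and iris list is separated by genotype at 8.04 to 8.18 against 7.81 to 7.97 (not so without Cldn2), and the lens list is the most variable, at 6.28 to 10.15.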

How the data were processed

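Retinal RNA of 4 wild-type samples and 4 with the label Mrp4-null was hybridized to one-color Agilent SurePrint G3 arrays. The authors deposited the scanner output per array, in which the signal intensity was already background-subtracted and spatially detrended (Agilent Feature Extraction 11.0.1.1, per the submitters' processing notes) but not normalized between arrays. The deposited table of the series held the mean of the same intensity per probe (largest log2 gap 2.1e-07). Sequencing depth does not apply to arrays, and their number limits the precision.

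Each array had 59305 non-control spots for 56605 probes. Outlier spots (78 to 143 per array) were left out, 0 spots were saturated, and log2 intensity was averaged per probe. Well above background were 66 to 69.9% of probes per array. Probes well above it throughout the measured arrays of either genotype (3 or more measured there, 2 or more in the other) were retained and quantile-normalized. Probes were named by accession through a RefSeq gene table of GRCm38.p6 (32994 matched), used for names, chromosomes and gene order. The array design is of mm9, so no coordinates are given. Probes of 1 gene were not averaged, and 1 called probe made its gene count as called.

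Genotypes were compared with limma 3.58.1 in R 4.3.3 (package data.table, version 1.17.8, figures with matplotlib 3.10.9), with genotype as the only term and Benjamini-Hochberg adjustment over all retained probes. A call needed an adjusted p under 0.05 and a fold of 1.5 or more. The scripts were tested on simulated data. The study's local pooled error test was written anew for this work and also adjusted. Named are all probes of the 8 genes, Abcc4, the other renin-angiotensin genes, the highest and lowest probes of each further pathway list, 5 tested neighbours on each side of Agtr1a and Agt, and the 5 probes most like Agtr1a. Marker genes and other genes named singly were picked after their values were seen. The members and lists were chosen with earlier results of these data known. Alternatives were other normalizations, background correction, filters, outlier spots, values, variance models, tests and thresholds, the replicate number as a block, and each array left out. Some genes of the lists are not reported here.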

Additional observations from a re-analysis of the deposited data

How the results depend on the processing

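Since Agtr1a was chosen from these arrays and passed the filter through the group where it was high, its calls are listed as counts only and support nothing. The count of called probes among those of the 8 genes was 1 in the main setting. With no filter on dim probes it was 0, with the filter requiring all 8 arrays it was 0 because Agtr1a was not tested, and it ran from 0 to 1 when each array was left out (0 without wild-type 4). The Agtr1a log2 difference was 1.39 after normexp correction, which adds an offset of 50 to the signals, and 2.31 (without wild-type 3) to 2.83 with an array left out. Agt stayed between −0.64 and −0.49 and Agtr2 between −0.37 and −0.03. The sign was not stable for Ace (−0.13 to 0.01), Atp6ap2 (−0.18 to 0.05), Lnpep (−0.18 to 0.13) and Enpep (−0.43 to 0.34), each moving by less than 1 SD. Called genes numbered 1 by the local pooled error test, and 0 to 1 with an array left out (1 without Mrp4-null 3), both among the other renin-angiotensin genes and over the pathway lists, in each case Cltrn. Neighbours of Agtr1a and Agt gave 0 to 0 calls with an array left out. Calls over all probes were 202 in the main setting and 232 by the local pooled error test. They numbered 117 to 183 with an array left out (130 without wild-type 2, 126 without wild-type 3, 117 without wild-type 4). Without the dim arrays Mrp4-null 2 and wild-type 3, an alternative chosen after seeing the data, 124 probes were called. With the replicate block 71 probes were called, Agtr1a among them. Deviations of same-numbered samples from their genotype means correlated at −0.29, −0.685, 0.0344 and 0.409. No null-labelled sample correlated best with the wild-type sample of its own number. Such deviations, centred within 4 arrays a genotype, cannot settle whether the replicate numbers pair the samples. The cause of these shifts was not tested. With 4 arrays a genotype and signals near background, small differences in Enpep and Ren1 were not detectable.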
